A study of Mus musculus with 24 samples.

Results

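The 36 genes described here encode proteins of the lysosome: 7 membrane proteins, 3 parts of the proton pump, 6 cathepsins, 4 other luminal peptidases or carriers, 7 glycosidases, 4 enzymes that break down mucopolysaccharides, 3 lipid enzymes and the transcription factors Tfeb and Tfe3. They were taken from a fixed list of names, which was chosen with earlier results of these data known. The TPM of all annotated transcripts of each gene were summed (TPM is the length-corrected share of a transcript in its library). All 36 were found among the 28328 genes of the table and all 36 passed the filter that left 12581 genes for testing. RNA was sequenced from LLC1, a tumour cell line from mouse Lewis lung carcinoma, grown in culture. Control cells received 0.1% DMSO (untreated). Chemotherapy was cisplatin at 2.5 µM with pemetrexed at 2.5 µM, trametinib, an inhibitor of the kinases MEK1 and MEK2, was given at 10 nM, and the combination held all 3 drugs, whose doses in it are not stated separately. Each of the 4 treatments was sampled at 6 h and at 24 h in 3 libraries, 24 in all. Whether the 3 libraries of a group are separate cultures is not in the labels, and the p-values rest on nothing but the variation among these libraries, which could be purely technical.

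Each library held 11242 to 11851 genes at 1 TPM or more, and libraries of a group correlated at 0.982 to 0.994 across genes. Read depth cannot be recovered from TPM. Of 7 lung epithelial markers, only 2 (Krt8 and Krt18) reached 1 TPM in any library, while Epcam, Cdh1, Nkx2-1, Sftpc and Scgb1a1 did not. Macrophages are rich in lysosomes, so their markers were read beside the lysosome genes. Adgre1 was at 0 in all 24 libraries, Csf1r did not exceed 0.0539 TPM, and 3 of 9 macrophage markers (Cd68, Cd14 and Lyz2) reached 1 TPM. The summed level of the 9 was 21.8 to 22.8 TPM in untreated libraries at 6 h and 22.0 to 27.9 at 24 h. It was 25.3 to 27.6 TPM after 6 h of chemotherapy and 49.9 to 54.0 after 24 h, 22.3 to 25.1 and 13.1 to 14.4 after trametinib, and 26.0 to 27.7 and 30.7 to 34.9 after the combination. Cd68, itself a lysosomal membrane glycoprotein, made up 33.0 to 39.2 TPM of the sum after 24 h of chemotherapy and 10.3 to 14.7 TPM in untreated cells. The 6 fibroblast markers summed to 5.76 to 6.39 TPM in untreated libraries at 24 h, to 29.1 to 30.1 after trametinib and to 45.8 to 51.3 after the combination, and at 6 h to 2.61 to 3.35, 9.22 to 12.5 and 11.9 to 15.2 in the same order. The 7 lung epithelial markers, carried by Krt8 and Krt18, summed at 24 h to 322 to 336 TPM untreated, 448 to 486 after chemotherapy, 218 to 255 after trametinib and 367 to 388.5 after the combination. Of 4 endothelial markers 1 reached 1 TPM, and their sum at 24 h was 2.62 to 3.61 TPM untreated, 7.10 to 12.9 after chemotherapy, 3.46 to 4.46 after trametinib and 5.27 to 6.87 after the combination. The part of these markers in the results was not tested. In such bulk samples, fewer cells of a type and less RNA per cell cannot be told apart.

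Lysosomes are acidic organelles in which hydrolases take apart proteins, glycans and lipids delivered by endocytosis and autophagy. A V-type ATPase pumps protons into them, heavily glycosylated proteins such as LAMP1 and LAMP2 line their membrane, and most soluble enzymes reach them through the mannose 6-phosphate receptors. Loss of a single enzyme causes a lysosomal storage disease, which is how many of these genes are known. Many lysosomal genes carry near their start a CLEAR element, an E-box with the core CACGTG that the transcription factors TFEB and TFE3 bind. Both factors are held in the cytoplasm by phosphorylation, mainly by mTORC1 at the lysosome and also by ERK, the kinase downstream of MEK.

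The promoter windows of RefSeq (GRCm38.p6; 250 bases before to 50 after the start of a gene) covered 32 of the 36 genes. CACGTG and TCACGTGA, which contains it, were searched on both strands. Each reads the same on either strand. CACGTG lay in 13 of 32 windows (40.6%), against 8.09% of the 27025 genes with a window. TCACGTGA lay in 6 of 32 (18.8%) against 1.12%. Lamp1 had the most copies, 4 of CACGTG within the 61 bases before its start. They are in capitals in the 130 bases upstream of Lamp1, given 5′ to 3′ as the others are.
Lamp1 (chr8:13159031-13159160, plus strand): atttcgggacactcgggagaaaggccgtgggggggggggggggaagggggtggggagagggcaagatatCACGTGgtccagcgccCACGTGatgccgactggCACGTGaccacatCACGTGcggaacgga
The 6 genes with TCACGTGA are shown by the site, in capitals, with 10 bases on either side, since these are the closest matches to the element among the genes whose values follow. Ctsa and Gla each hold 2 sites.
Mcoln1 (chr8:3500463-3500490, plus strand): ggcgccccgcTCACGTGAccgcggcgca
Cln3 (chr7:126583341-126583368, minus strand): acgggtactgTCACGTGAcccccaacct
Ctsd (chr7:142387909-142387936, minus strand): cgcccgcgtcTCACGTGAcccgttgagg
Ctsa (chr2:164833750-164833777, plus strand): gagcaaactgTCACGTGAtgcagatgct
Ctsa (chr2:164833767-164833794, plus strand): atgcagatgcTCACGTGAccagagctac
Gla (chrX:134601216-134601243, minus strand): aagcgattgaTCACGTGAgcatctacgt
Gla (chrX:134601183-134601210, minus strand): gagatctcggTCACGTGAgcaactctcg
Atp6v0d1 (chr8:105566051-105566078, minus strand): cctactgcggTCACGTGAgacgcggtgc
The sites begin 4 bases before the start of Atp6v0d1, 46 before that of Mcoln1, 99 before that of Ctsd and 122 before that of Cln3. In Ctsa they begin 13 bases before the start and at base 5 of the gene, and in Gla 228 and 195 bases before it. These starts are those of RefSeq. The gene spans of GENCODE M21 begin further upstream for Ctsd, Cln3, Ctsa and Mcoln1, whose sites lie within them, while the sites of Atp6v0d1 and Gla lie before them. A match describes the letters only and does not show that a factor was bound.

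Trametinib raised most of these genes within 6 h, chemotherapy few, and the combination raised the most at both times. After 6 h of trametinib 22 of 36 genes were higher than in untreated cells and 1 was lower, where 35.9% of all tested genes were higher and 18.9% lower, together 54.8% (limma, adjusted p under 0.05, as throughout). The combination at 6 h gave 25 higher and 1 lower, against 38.6% and 19.8% of all genes (58.4% in all). Chemotherapy at 6 h gave 5 higher and 1 lower, against 11.3% and 13.5% (24.8%). After 24 h the directions were more mixed. Chemotherapy gave 12 higher and 9 lower (34.9% and 24.3% of all genes, 59.2% in all), trametinib 14 higher and 8 lower (32.4% and 26.3%, 58.7% in all), and the combination 24 higher and 6 lower (39.6% and 23.8%, 63.4% in all). The median log2 difference of the 36 genes was 0.03, 0.20 and 0.36 at 6 h for chemotherapy, trametinib and the combination, beside 0.01, 0.10 and 0.11 over all genes tested. At 24 h it was 0.00, 0.08 and 0.25, beside 0.06, 0.04 and 0.10. The comparisons of a time share their 3 untreated libraries. Where values in each library follow, groups that do not overlap are common among all genes too: the treated libraries all lay above the untreated ones for 19.3% of genes with chemotherapy, 39.6% with trametinib and 41.7% with the combination at 6 h, and for 38.0%, 35.5% and 42.6% at 24 h. They all lay below for 19.6%, 21.9% and 22.9% at 6 h and for 27.3%, 29.6% and 26.9% at 24 h.

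A gene's TPM depends on all other transcripts of its library, and rescaling each library by its median ratio to the geometric mean moved the median of all genes by -0.10 for trametinib at 6 h, -0.13 for the combination at 6 h, -0.11 for the combination at 24 h and -0.14 for the combination against chemotherapy at 6 h. On that scale trametinib at 6 h gave 16 higher and 5 lower and the combination at 6 h 21 and 8. Chemotherapy at 24 h gave 12 and 15. Shares of all genes called on the rescaled values were not counted. Counts on that scale, here and below, therefore have no background to be read against. The median log2 difference of the lysosome genes on that scale was 0.092, 0.220 and -0.069 in these comparisons, in order. Over all genes it was 0.005, -0.016 and -0.004. The chemotherapy calls at 6 h depended on which libraries were fitted: 2 of the 6 calls (Cln3 and Ctsd) held whichever library was left out. The count fell to 2 without untreated replicate 2, 3 without untreated replicate 3 and 3 without chemotherapy replicate 2. The other 4 were Ctsz, Npc2 and Mcoln1 (higher) and Gla (lower).

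**Figure D1:**
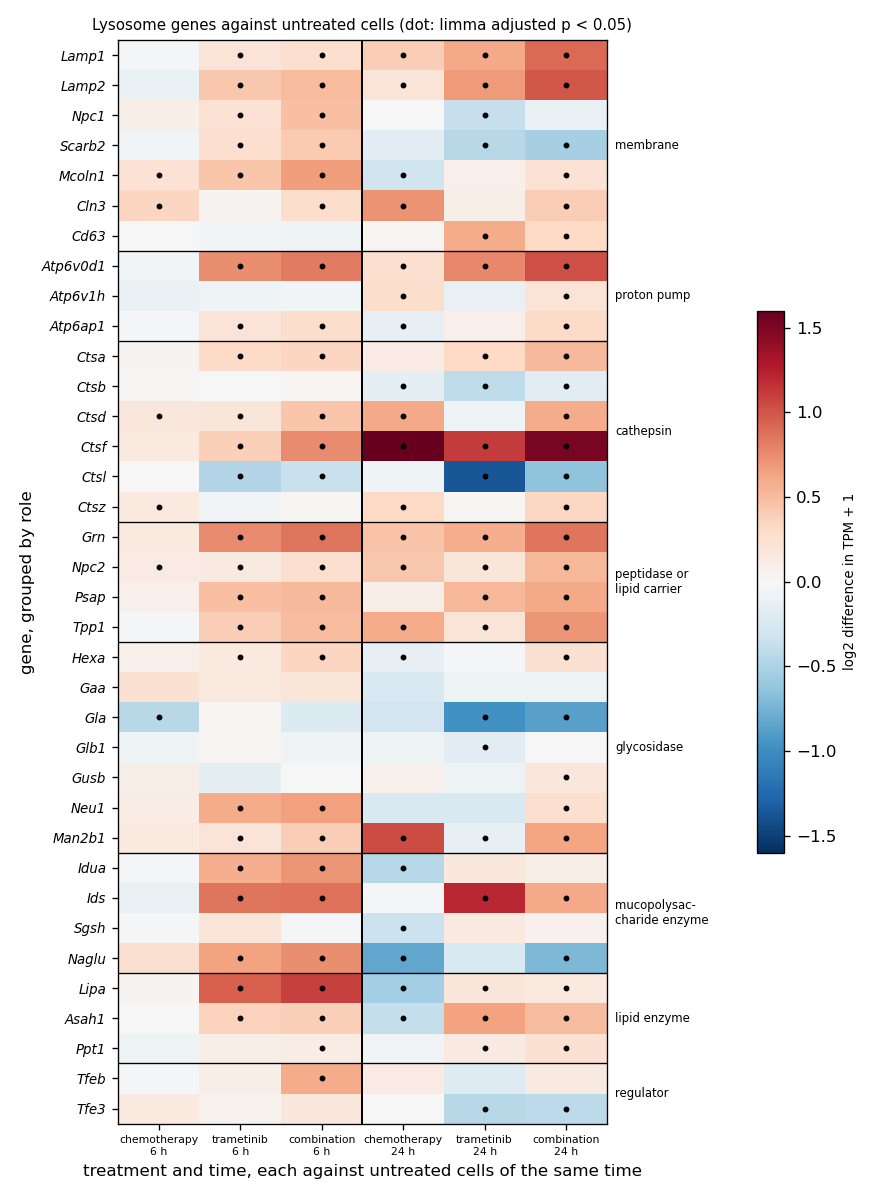
Log2 difference in TPM + 1 between each treatment and untreated cells of the same time (6 columns) for the 36 lysosome genes (rows, grouped by role); red is higher, blue lower, and a dot marks a limma adjusted p under 0.05. At 6 h dots gather in the trametinib and combination columns (23 and 26) and are few in the chemotherapy column (6). At 24 h most roles hold both red and blue cells with dots. The peptidases or lipid carriers have dots on red cells only and the regulators on blue cells only.

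Summed over the 36 genes, lysosomal mRNA was 3845.5 ± 44.5 TPM (SD, n = 3) in untreated cells at 6 h, 3928 ± 83.8 after chemotherapy, 4063 ± 68.6 after trametinib and 4244 ± 51.1 after the combination. At 24 h the sums were 4085 ± 17.5, 4396 ± 53.2, 4311 ± 66.3 and 4900.3 ± 37.4 TPM. Such sums are weighted to the highest genes, and the rise with trametinib at 24 h rested on Cd63. Without Cd63 the 24 h libraries summed to 3392 to 3452 TPM untreated and 3222 to 3361 after trametinib, which was lower without overlap. They summed to 3655 to 3808 TPM after chemotherapy and 4035 to 4104 after the combination. With Cd63 included, the order was as follows. The 3 combination libraries at 24 h (4857 to 4923 TPM) were above every other library. Ctsf, Tfeb, Sgsh and Idua did not exceed 5.07, 5.16, 6.09 and 7.1 TPM in any library, and at such levels the pseudocount of 1 makes a log2 difference smaller than the fold change in TPM.

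Among the 7 membrane proteins, Lamp1 and Lamp2 rose after trametinib and after the combination at both times, and after chemotherapy at 24 h. LAMP1 and LAMP2 are among the most abundant glycoproteins of the lysosomal membrane, and their genes lie at chr8:13159161-13175338 and chrX:38401357-38456454 (GRCm38, GENCODE M21, as for the genes that follow). Lamp1 was at 345, 353 and 346 TPM in the 3 untreated libraries at 6 h, 345, 346 and 339.6 after chemotherapy, 395, 398 and 412 after trametinib and 420.5, 414 and 428 after the combination. After 24 h Lamp1 was at 266, 272 and 256 TPM untreated, 338, 370.2 and 339.7 after chemotherapy, 404, 390.5 and 417 after trametinib and 494, 502 and 496 after the combination. In untreated cells Lamp1 fell between the times, and every treated library at 24 h was above every untreated one of that time. The log2 difference at 24 h was 0.40 ± 0.04 (SE, adjusted p = 2.9e-08) for chemotherapy, 0.61 ± 0.04 (SE, adjusted p = 5.9e-11) for trametinib and 0.91 ± 0.04 (SE, adjusted p = 1.3e-13) for the combination. At 6 h it was 0.20 ± 0.04 (SE, adjusted p = 1.2e-04) for trametinib, a call lost on the rescaled values (0.09), and 0.27 ± 0.04 (SE, adjusted p = 3.6e-06) for the combination.

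Lamp2 was at 74, 77.8 and 77.5 TPM in the 3 untreated libraries at 6 h, 73.4, 69 and 69.9 after chemotherapy, 94.1, 105 and 113 after trametinib and 109, 102 and 116 after the combination. After 24 h Lamp2 was at 106, 106 and 102 TPM untreated, 119.5, 124 and 119 after chemotherapy, 175, 163 and 168 after trametinib and 208, 214 and 204 after the combination. Unlike Lamp1, Lamp2 rose with time in untreated cells (0.45 ± 0.06 SE, adjusted p = 9.4e-07), and the 3 combination libraries at 24 h stood above all others. The combination was 0.99 ± 0.06 (SE, adjusted p = 8.6e-12) above untreated cells at 24 h and trametinib 0.69 ± 0.06 (SE, adjusted p = 2.3e-09). Chemotherapy alone gave 0.21 ± 0.06 (SE, adjusted p = 0.003) against untreated cells. At 6 h the differences were 0.43 for trametinib and 0.51 for the combination, and -0.11 ± 0.06 (SE, adjusted p = 0.16) for chemotherapy, which did not pass.

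Npc1 and Scarb2 were higher with trametinib at 6 h and lower at 24 h. NPC1 carries cholesterol out of the lysosome, and SCARB2 (LIMP-2) is one of its membrane glycoproteins. Npc1 was at 12.5, 12.8 and 12.6 TPM in the 3 untreated libraries at 6 h, 14.2, 12.6 and 13.8 after chemotherapy, 14.4, 14.5 and 16.2 after trametinib and 18.6, 16.8 and 18.6 after the combination. After 24 h Npc1 was at 15.8, 15.8 and 16.2 TPM untreated, 15.8, 16.6 and 15.6 after chemotherapy, 12.4, 11.2 and 12.6 after trametinib and 15.05, 15.2 and 13.7 after the combination. The trametinib libraries were above the untreated ones at 6 h and below them at 24 h, without overlap at either time. Npc1 differed by 0.23 ± 0.06 (SE, adjusted p = 0.0027) at 6 h and -0.38 ± 0.06 (SE, adjusted p = 2.2e-05) at 24 h under trametinib, and by 0.48 ± 0.06 (SE, adjusted p = 9.8e-07) and -0.12 ± 0.06 (SE, adjusted p = 0.09) under the combination.
Scarb2 was at 15.96, 16.5 and 17.3 TPM in the 3 untreated libraries at 6 h, 17.97, 14.1 and 16.1 after chemotherapy, 18.8, 19.7 and 22.4 after trametinib and 22.9, 20.9 and 23.5 after the combination. After 24 h Scarb2 was at 27, 25.1 and 24.6 TPM untreated, 22.5, 23.2 and 21.96 after chemotherapy, 20.04, 16.2 and 19.2 after trametinib and 17.5, 17.9 and 16.7 after the combination. Scarb2 showed the same crossing, with all 3 trametinib and all 3 combination libraries below the untreated ones at 24 h. Its difference was 0.27 ± 0.08 (SE, adjusted p = 0.0089) at 6 h and -0.45 ± 0.08 (SE, adjusted p = 1.1e-04) at 24 h for trametinib, and 0.41 ± 0.08 (SE, adjusted p = 2.5e-04) and -0.53 ± 0.08 (SE, adjusted p = 1.4e-05) for the combination. The 6 h trametinib call was lost without trametinib replicate 3 (0.20, adjusted p = 0.064).

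Mcoln1 encodes the lysosomal calcium channel mucolipin 1, and Cln3 a membrane protein mutated in juvenile Batten disease. Mcoln1 was at 27.3, 29.2 and 28.8 TPM in the 3 untreated libraries at 6 h, 32.9, 36.4 and 31.4 after chemotherapy, 37.7, 36.4 and 43.4 after trametinib and 49.6, 42.6 and 45.7 after the combination. After 24 h Mcoln1 was at 36.2, 35.1 and 38.8 TPM untreated, 31.6, 28.3 and 27.9 after chemotherapy, 37.7, 36.9 and 41.8 after trametinib and 44.1, 40.4 and 44.8 after the combination. At 6 h every treated library was above the untreated ones. At 24 h the chemotherapy libraries were below all untreated ones. Mcoln1 differed by 0.44 ± 0.08 (SE, adjusted p = 5.6e-05) under trametinib and 0.67 ± 0.08 (SE, adjusted p = 2.9e-07) under the combination at 6 h, and by -0.32 ± 0.08 (SE, adjusted p = 0.0014) under chemotherapy at 24 h. The chemotherapy rise at 6 h (0.23 ± 0.08 SE, adjusted p = 0.033) was lost without untreated replicate 1 (0.20, adjusted p = 0.11), 2 (0.25, 0.057) or 3 (0.24, 0.063) or chemotherapy replicate 2 (0.17, 0.16). The combination difference at 24 h (0.22 ± 0.08 SE, adjusted p = 0.014) was lost without untreated replicate 2 (0.19, adjusted p = 0.059) or combination replicate 3 (0.20, 0.056), and on the rescaled values (0.10, 0.27). Transcripts annotated as protein coding held 51.8% to 71.7% of Mcoln1 TPM. Counted over these alone, the difference was 0.45 for trametinib and 0.57 for the combination at 6 h, both called, and 0.12 (adjusted p = 0.33) at 6 h and -0.06 (0.61) at 24 h for chemotherapy.

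Cln3 was at 36.2, 34.98 and 34.5 TPM in the 3 untreated libraries at 6 h, 43.6, 44.6 and 47.1 after chemotherapy, 37.5, 36.95 and 34.2 after trametinib and 42.5, 40.4 and 45.8 after the combination. After 24 h Cln3 was at 35.1, 34.4 and 29.9 TPM untreated, 54.7, 51.3 and 59.8 after chemotherapy, 35.5, 37.4 and 33.2 after trametinib and 44.7, 40.5 and 45.95 after the combination. Cln3 was the gene of the list that chemotherapy raised most at 6 h, and every chemotherapy and combination library was above every untreated one at both times. The differences were 0.35 ± 0.07 (SE, adjusted p = 0.0012) at 6 h and 0.72 ± 0.07 (SE, adjusted p = 4.0e-08) at 24 h for chemotherapy, and 0.28 ± 0.07 (SE, adjusted p = 0.0023) and 0.39 ± 0.07 (SE, adjusted p = 6.9e-05) for the combination. Trametinib alone gave 0.04 ± 0.07 (SE, adjusted p = 0.68) and 0.09 ± 0.07 (SE, adjusted p = 0.27). Coding transcripts held 33.9% to 57.2% of Cln3 TPM. Over these alone the chemotherapy difference was 0.11 (adjusted p = 0.59) at 6 h and 0.84 (1.4e-05) at 24 h, and that of the combination 0.19 (0.21) at 6 h, a call also lost on the rescaled values (0.13, 0.15), and 0.64 (2.2e-04) at 24 h. Cd63, a tetraspanin of lysosomes and exosomes, rose after 24 h of trametinib, from 672 ± 23.98 TPM to 1016 ± 10.1 TPM (SD, n = 3, log2 difference 0.60 ± 0.05 SE, adjusted p = 7.9e-09), and under the combination by 0.31 ± 0.05 (SE, adjusted p = 2.8e-05). It was not called at 6 h.

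Of the 3 proton pump genes, Atp6v0d1 moved most. It encodes the d1 subunit of the membrane sector of the pump. Atp6v0d1 was at 30.4, 30.2 and 31.2 TPM in the 3 untreated libraries at 6 h, 28.9, 30.4 and 29.8 after chemotherapy, 52.1, 48 and 55.7 after trametinib and 54.8, 54.8 and 56.6 after the combination. After 24 h Atp6v0d1 was at 29.8, 31.1 and 31.3 TPM untreated, 35.7, 37.2 and 37.5 after chemotherapy, 54.05, 51.1 and 54.1 after trametinib and 63.6, 67.6 and 59.99 after the combination. No trametinib or combination library overlapped an untreated one at either time, and after chemotherapy Atp6v0d1 overlapped the untreated libraries at 6 h and not at 24 h. The log2 difference was 0.74 ± 0.05 (SE, adjusted p = 3.6e-10) and 0.77 ± 0.05 (SE, adjusted p = 1.1e-10) for trametinib at 6 h and 24 h, and 0.84 ± 0.05 (SE, adjusted p = 4.8e-11) and 1.03 ± 0.05 (SE, adjusted p = 1.2e-12) for the combination. Chemotherapy gave 0.25 ± 0.05 (SE, adjusted p = 2.3e-04) at 24 h. Atp6ap1, an accessory subunit, rose at 6 h by 0.20 with trametinib and 0.28 with the combination (adjusted p = 0.0017 and 6.6e-05). The first call was lost on the rescaled values (0.09). At 24 h Atp6ap1 was 0.31 ± 0.05 (SE, adjusted p = 2.1e-05) higher with the combination and differed by -0.13 ± 0.05 (SE, adjusted p = 0.028) with chemotherapy, a fall that was lost without untreated replicate 1 (-0.08, adjusted p = 0.18) or chemotherapy replicate 1 (-0.13, 0.068) or 3 (-0.12, 0.090). Atp6v1h, the H subunit of the cytoplasmic sector, was called only at 24 h, at 0.28 ± 0.06 (SE, adjusted p = 7.1e-04) for chemotherapy and 0.22 ± 0.06 (SE, adjusted p = 0.0061) for the combination. The latter was lost on the rescaled values (0.09).

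The 6 cathepsins moved in different directions. Ctsl fell with trametinib while Ctsd rose with chemotherapy. Cathepsin L is a cysteine protease and cathepsin D an aspartic protease of the lysosomal lumen, encoded at chr13:64359337-64370890 and chr7:142375911-142388038. Ctsl was at 765, 769 and 733 TPM in the 3 untreated libraries at 6 h, 716, 742 and 795 after chemotherapy, 527, 539 and 574 after trametinib and 621, 581 and 565 after the combination. After 24 h Ctsl was at 986, 960.5 and 911 TPM untreated, 867, 990.0 and 875 after chemotherapy, 367, 354 and 384 after trametinib and 641, 597 and 596 after the combination. Ctsl was the highest of the cathepsins in every group, and after 24 h of trametinib its libraries were the lowest of all 24. The log2 difference was -0.47 ± 0.06 (SE, adjusted p = 1.2e-06) at 6 h and -1.37 ± 0.06 (SE, adjusted p = 2.2e-13) at 24 h, the deepest fall among the 36 genes in any comparison with untreated cells. With the combination it was -0.36 ± 0.06 (SE, adjusted p = 2.2e-05) and -0.64 ± 0.06 (SE, adjusted p = 9.9e-09), and with chemotherapy -0.01 ± 0.06 (SE, adjusted p = 0.93) and -0.07 ± 0.06 (SE, adjusted p = 0.34), neither of which passed.

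Ctsd was at 169, 171 and 163 TPM in the 3 untreated libraries at 6 h, 175, 201 and 196 after chemotherapy, 193, 186 and 194 after trametinib and 232, 227 and 226 after the combination. After 24 h Ctsd was at 244, 237 and 240.0 TPM untreated, 353, 379 and 363 after chemotherapy, 226, 228 and 236 after trametinib and 371, 363 and 359.6 after the combination. At 24 h the chemotherapy and combination libraries formed 1 high range and the untreated and trametinib libraries 1 low range, with no overlap between them. Chemotherapy raised Ctsd by 0.18 ± 0.04 (SE, adjusted p = 0.0042) at 6 h and 0.60 ± 0.04 (SE, adjusted p = 7.6e-10) at 24 h, and the combination by 0.44 ± 0.04 (SE, adjusted p = 4.4e-08) and 0.60 ± 0.04 (SE, adjusted p = 4.8e-10). Trametinib gave 0.19 ± 0.04 (SE, adjusted p = 0.0012) at 6 h, a call lost on the rescaled values (0.07), and -0.06 ± 0.04 (SE, adjusted p = 0.23) at 24 h. Ctsd and Ctsl each share exonic bases with a predicted gene on the same strand, so reads there could be assigned to either.

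Ctsb was at 192, 195 and 189.6 TPM in the 3 untreated libraries at 6 h, 191, 199 and 194 after chemotherapy, 188, 193 and 194 after trametinib and 200.5, 193 and 194 after the combination. After 24 h Ctsb was at 229, 229.6 and 231 TPM untreated, 206, 209.8 and 209.7 after chemotherapy, 171, 171 and 180.0 after trametinib and 212, 202 and 200.4 after the combination. Ctsb, the cysteine protease cathepsin B, lay in 1 narrow range at 6 h and was below the untreated level after all 3 treatments at 24 h. The 24 h differences were -0.14 ± 0.03 (SE, adjusted p = 9.8e-04) for chemotherapy, -0.40 ± 0.03 (SE, adjusted p = 2.7e-09) for trametinib and -0.16 ± 0.03 (SE, adjusted p = 1.8e-04) for the combination. Ctsa, the protective protein that keeps the galactosidase GLB1 and the sialidase NEU1 stable, rose with trametinib (0.30 and 0.31 at 6 h and 24 h) and the combination (0.34 and 0.51). Ctsz rose with chemotherapy at 24 h (0.32 ± 0.05 SE, adjusted p = 6.9e-06) and with the combination (0.33 ± 0.05 SE, adjusted p = 2.9e-06). Its chemotherapy call at 6 h (0.15, adjusted p = 0.022) was lost without untreated replicate 1, 2 or 3 or chemotherapy replicate 1, at 0.15, 0.15, 0.15 and 0.12 (adjusted p = 0.058, 0.056, 0.053 and 0.088). Ctsf was low in untreated cells, with a mean of 0.343 ± 0.0223 TPM after 6 h and of 0.98 ± 0.0372 TPM after 24 h (SD, n = 3). It was called higher in all but the chemotherapy comparison at 6 h. At 6 h it was under 1 TPM in every untreated and chemotherapy library and passed the filter through other groups. It was 0.80, 0.45 and 1.05 TPM after 6 h of trametinib and 1.12 to 1.36 TPM after the combination. The 6 h trametinib call was lost in a fit of only the groups compared (0.38, adjusted p = 0.051). At 24 h chemotherapy brought Ctsf to 4.95 ± 0.147 TPM, trametinib to 3.29 ± 0.261 TPM and the combination to 4.68 ± 0.235 TPM (log2 differences 1.59, 1.11 and 1.52, adjusted p = 4.0e-11, 5.3e-09 and 4.5e-11).

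**Figure D2:**
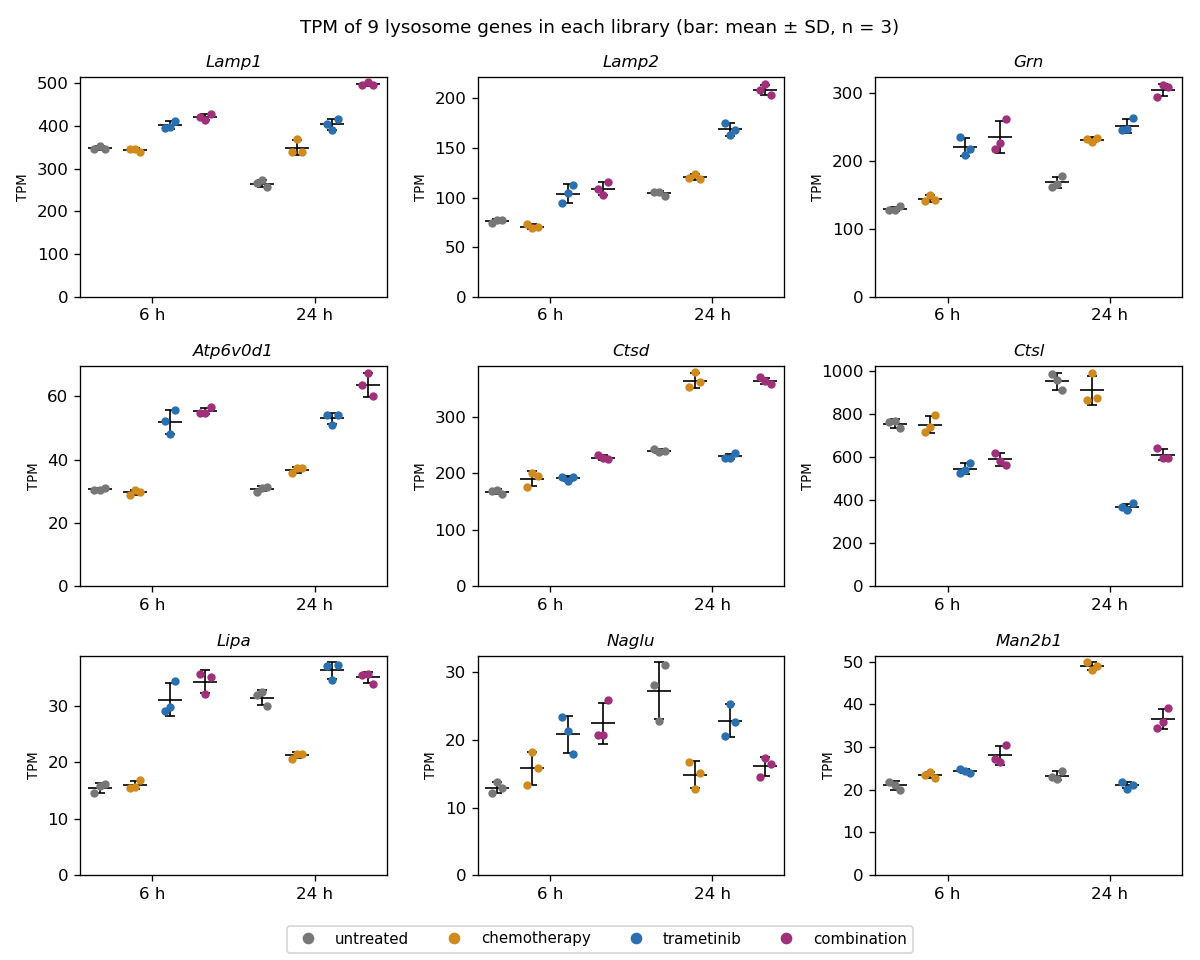
TPM of 9 lysosome genes in each of the 24 libraries at 6 h and 24 h (points, coloured by treatment; bars, mean ± SD of 3 libraries; each panel has its own linear axis from 0). Lamp1 and Lamp2 are highest in the 3 combination libraries at 24 h, Ctsd is high at 24 h with chemotherapy and the combination, and Ctsl is lowest at 24 h with trametinib.

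The 4 luminal peptidases and carriers were the group that moved together: all 4 rose with trametinib and with the combination at both times. Of all genes 35.9% and 32.4% rose with trametinib at 6 h and 24 h, and 38.6% and 39.6% with the combination. They are Grn (progranulin, which is cut into granulins in the lysosome), Psap (prosaposin, the source of the saposins that present sphingolipids to their enzymes), Tpp1 (tripeptidyl peptidase 1) and Npc2 (a soluble cholesterol carrier). Grn was at 128, 127 and 133 TPM in the 3 untreated libraries at 6 h, 141, 149.9 and 143 after chemotherapy, 234, 208 and 217 after trametinib and 217, 226 and 262 after the combination. After 24 h Grn was at 162, 166 and 178 TPM untreated, 233, 227 and 234 after chemotherapy, 245, 246 and 263 after trametinib and 293, 311 and 308 after the combination. No treated Grn library overlapped an untreated one of its time. The log2 difference was 0.76 ± 0.06 (SE, adjusted p = 3.1e-09) at 6 h and 0.58 ± 0.06 (SE, adjusted p = 8.9e-08) at 24 h for trametinib and 0.85 ± 0.06 (SE, adjusted p = 4.2e-10) and 0.85 ± 0.06 (SE, adjusted p = 2.7e-10) for the combination. Chemotherapy gave 0.16 ± 0.06 (SE, adjusted p = 0.057) at 6 h and 0.46 ± 0.06 (SE, adjusted p = 2.1e-06) at 24 h.

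Psap rose from 269.7 ± 11.6 TPM to 390.5 ± 2.68 TPM after 24 h of trametinib and 410.2 ± 15.3 TPM after 24 h of the combination (SD, n = 3, log2 differences 0.53 ± 0.04 and 0.60 ± 0.04 SE, adjusted p = 5.5e-09 and 7.0e-10), and was 288 ± 13.3 TPM with chemotherapy, which was not called. At 6 h its differences were 0.48 and 0.52. Tpp1 rose with chemotherapy at 24 h, from 44.6 ± 0.195 TPM to 67.7 ± 1.92 TPM (0.59 ± 0.04 SE, adjusted p = 3.6e-10), to 51.4 ± 1.87 TPM with trametinib (0.20 ± 0.04 SE, adjusted p = 3.1e-04) and to 73.1 ± 2.59 TPM with the combination (0.70 ± 0.04 SE, adjusted p = 1.9e-11). Npc2 followed the same order at 24 h, with 0.19 for trametinib, 0.44 for chemotherapy and 0.53 for the combination. Its smaller differences at 6 h (0.14 for chemotherapy, 0.15 for trametinib and 0.25 for the combination) were less firm. The chemotherapy call was lost without untreated replicate 2 (0.13, adjusted p = 0.052) or 3 (0.12, 0.067) or chemotherapy replicate 2 (0.12, 0.074). The trametinib and combination calls were lost on the rescaled values (0.03 and 0.11).

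Among the 7 glycosidases, 3 rose with trametinib at 6 h (Hexa, Neu1 and Man2b1) and none fell (35.9% and 18.9% of all genes). At 24 h none was higher and 3 were lower (Gla, Glb1 and Man2b1), against 32.4% and 26.3% of all genes. On the rescaled values Neu1 alone was higher at 6 h and Gusb was lower (-0.27, adjusted p = 0.0011), and at 24 h Neu1 was also lower (-0.29, 0.022). Man2b1, an alpha-mannosidase, stood out with chemotherapy. Man2b1 was at 21.9, 21.1 and 20 TPM in the 3 untreated libraries at 6 h, 23.4, 24.2 and 22.9 after chemotherapy, 24.96, 24.5 and 23.9 after trametinib and 27.3, 26.5 and 30.5 after the combination. After 24 h Man2b1 was at 23.02, 22.4 and 24.4 TPM untreated, 49.9, 47.99 and 49.05 after chemotherapy, 21.9, 20.3 and 21.2 after trametinib and 34.5, 35.96 and 39.1 after the combination. The 3 chemotherapy libraries at 24 h were the highest of all, and the combination libraries came next. Man2b1 rose by 1.04 ± 0.06 (SE, adjusted p = 8.4e-12) with chemotherapy and 0.63 ± 0.06 (SE, adjusted p = 7.4e-09) with the combination at 24 h. The trametinib difference was 0.21 ± 0.06 (SE, adjusted p = 0.0034) at 6 h, a call lost on the rescaled values (0.10). At 24 h it was -0.13 ± 0.06 (SE, adjusted p = 0.044), a call lost without untreated replicate 1 (-0.14, adjusted p = 0.069) or 3 (-0.10, 0.17) or trametinib replicate 2 (-0.11, 0.15) or 3 (-0.14, 0.077).

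Gla is the alpha-galactosidase missing in Fabry disease. Gla was at 21.1, 26.01 and 14.9 TPM in the 3 untreated libraries at 6 h, 14.4, 13.7 and 15.9 after chemotherapy, 19.6, 23.2 and 19.5 after trametinib and 17.8, 15.1 and 18.9 after the combination. After 24 h Gla was at 29.7, 31.01 and 26.3 TPM untreated, 22.2, 24.8 and 22.6 after chemotherapy, 16.4, 13.1 and 13.7 after trametinib and 16.5, 13.4 and 16.7 after the combination. The trametinib and combination libraries at 24 h were all below the untreated ones, and untreated libraries at 6 h were widely spread. Gla fell by 0.96 ± 0.14 with trametinib (SE, adjusted p = 1.0e-05) and differed by -0.86 ± 0.14 (SE, adjusted p = 3.0e-05) with the combination at 24 h. Its chemotherapy call at 6 h (-0.44 ± 0.14 SE, adjusted p = 0.031) was lost without untreated replicate 1 (-0.41, adjusted p = 0.090) or 2 (-0.26, 0.21) or chemotherapy replicate 1 (-0.43, 0.066) or 2 (-0.39, 0.10). Hexa, the alpha chain of beta-hexosaminidase, was 0.35 ± 0.04 (SE, adjusted p = 7.3e-07) higher at 6 h and 0.25 ± 0.04 (SE, adjusted p = 4.0e-05) higher at 24 h with the combination, and its trametinib call at 6 h (0.15) was lost on the rescaled values (0.04). Its chemotherapy difference at 24 h (-0.13 ± 0.04 SE, adjusted p = 0.011) was lost without chemotherapy replicate 1 (-0.12, adjusted p = 0.051). Neu1, a sialidase, rose at 6 h by 0.59 with trametinib and 0.66 with the combination, from 6.67 TPM to 10.6 and 11.1 TPM. Gaa, which degrades glycogen, passed in none of the 6 comparisons. Glb1, a beta-galactosidase, passed only with trametinib at 24 h (-0.16 ± 0.04 SE, adjusted p = 0.0021), and Gusb, a beta-glucuronidase, only with the combination at 24 h (0.18 ± 0.06 SE, adjusted p = 0.018). The Gusb call was lost without untreated replicate 1 (0.16, adjusted p = 0.076) or 3 (0.17, 0.053), and on the rescaled values (0.06, 0.42). The Neu1 call with the combination at 24 h (0.26, adjusted p = 0.041) was lost without untreated replicate 1 (0.25, 0.088) or 2 (0.20, 0.16) or combination replicate 2 (0.18, 0.19) or 3 (0.23, 0.11), on the rescaled values (0.14, 0.25) and for coding transcripts alone (0.34, 0.075).

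Of the 4 enzymes of mucopolysaccharide breakdown, 3 rose with trametinib at 6 h, and 3 fell with chemotherapy at 24 h. Over all tested genes 35.9% rose in the former and 24.3% fell in the latter. Trametinib at 24 h gave 1 higher and 0 lower, and chemotherapy at 6 h gave 0 and 0. Of the chemotherapy falls, those of Idua and Sgsh were lost for coding transcripts alone. Ids (iduronate sulfatase), Idua (iduronidase), Naglu (an acetylglucosaminidase) and Sgsh (sulfamidase) act on heparan sulfate, and the first pair on dermatan sulfate too. Ids was at 10.4, 11.7 and 11.1 TPM in the 3 untreated libraries at 6 h, 11.99, 8.98 and 9.59 after chemotherapy, 17.2, 22.3 and 23.5 after trametinib and 20.3, 19.3 and 23.9 after the combination. After 24 h Ids was at 9.199, 10.2 and 8.601 TPM untreated, 10.3, 9.47 and 7.86 after chemotherapy, 24.4, 20.1 and 24.1 after trametinib and 14.4, 15.5 and 14.4 after the combination. The trametinib libraries were above the untreated ones at both times, and the combination was above them too, though nearer at 24 h. Ids rose by 0.86 ± 0.12 (SE, adjusted p = 6.6e-06) and 1.205 ± 0.12 (SE, adjusted p = 6.3e-08) with trametinib at 6 h and 24 h, and by 0.87 ± 0.12 (SE, adjusted p = 4.0e-06) and 0.61 ± 0.12 (SE, adjusted p = 2.1e-04) with the combination.
Naglu was at 12.1, 13.8 and 12.9 TPM in the 3 untreated libraries at 6 h, 13.3, 18.2 and 15.8 after chemotherapy, 23.4, 21.2 and 17.9 after trametinib and 20.8, 20.7 and 25.96 after the combination. After 24 h Naglu was at 28.1, 22.8 and 31.1 TPM untreated, 16.7, 12.7 and 15.2 after chemotherapy, 20.6, 25.4 and 22.6 after trametinib and 14.5, 17.3 and 16.4 after the combination. Naglu libraries were higher than untreated ones with trametinib and the combination at 6 h, and lower with chemotherapy and the combination at 24 h. The differences were 0.64 ± 0.13 (SE, adjusted p = 4.2e-04) and 0.75 ± 0.13 (SE, adjusted p = 7.6e-05) at 6 h, and -0.83 ± 0.13 (SE, adjusted p = 2.4e-05) for chemotherapy and -0.72 ± 0.13 (SE, adjusted p = 9.6e-05) for the combination at 24 h.

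Idua was at 4.24, 3.505 and 3.44 TPM in the 3 untreated libraries at 6 h, 4.103, 3.28 and 3.48 after chemotherapy, 6.59, 6.22 and 5.48 after trametinib and 6.76, 6.295 and 7.1 after the combination. After 24 h Idua was at 5.26, 5.58 and 5.902 TPM untreated, 3.53, 3.46 and 4.41 after chemotherapy, 6.999, 5.903 and 6.39 after trametinib and 6.14, 6.36 and 5.83 after the combination. Idua was above the untreated range at 6 h after trametinib and the combination, and below it at 24 h after chemotherapy. The log2 difference was 0.59 ± 0.09 (SE, adjusted p = 2.0e-05) and 0.71 ± 0.09 (SE, adjusted p = 1.5e-06) at 6 h, and -0.46 ± 0.09 (SE, adjusted p = 2.4e-04) for chemotherapy at 24 h. Coding transcripts held 42.2% to 95.7% of Idua TPM, and over these alone the chemotherapy difference was -0.20 (adjusted p = 0.12). Sgsh was 5.17 TPM in untreated cells and 3.85 TPM after chemotherapy at 24 h (-0.34 ± 0.10 SE, adjusted p = 0.0059), and for coding transcripts alone -0.09 (adjusted p = 0.45).

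The lipid enzymes went apart at 24 h, where all 3 were higher with trametinib and with the combination and 2 of 3 lower with chemotherapy. Over all genes 32.4% were higher with trametinib, 39.6% higher with the combination and 24.3% lower with chemotherapy. Lipa, the acid lipase that splits cholesteryl esters and triglycerides, encoded at chr19:34492318-34527474, was the gene that trametinib raised most at 6 h. Lipa was at 14.5, 15.8 and 16.1 TPM in the 3 untreated libraries at 6 h, 15.5, 15.5 and 16.8 after chemotherapy, 29.1, 29.8 and 34.4 after trametinib and 35.7, 32 and 35.1 after the combination. After 24 h Lipa was at 31.9, 32.5 and 29.9 TPM untreated, 20.6, 21.5 and 21.5 after chemotherapy, 37.03, 34.5 and 37.1 after trametinib and 35.5, 35.7 and 33.9 after the combination. Untreated Lipa rose between the times (0.98), and at 24 h the chemotherapy libraries were below it and the other treated ones above. The trametinib difference was 0.96 ± 0.06 (SE, adjusted p = 1.9e-10) at 6 h and 0.20 ± 0.06 (SE, adjusted p = 0.0091) at 24 h, and that of the combination 1.10 ± 0.06 (SE, adjusted p = 2.0e-11) and 0.15 ± 0.06 (SE, adjusted p = 0.037). The last was lost without untreated replicate 1 (0.16, adjusted p = 0.055) or 3 (0.12, 0.15) or combination replicate 1 (0.14, 0.090) or 2 (0.14, 0.10), and on the rescaled values (0.03). Chemotherapy gave -0.55 ± 0.06 (SE, adjusted p = 2.8e-07) at 24 h.

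Asah1, the acid ceramidase, showed the same signs in its summed TPM: 147 ± 1.64 TPM in untreated cells at 24 h, 113 ± 6.69 TPM after chemotherapy, 230.1 ± 8.15 TPM after trametinib and 209.9 ± 7.03 TPM after the combination (SD, n = 3, log2 differences -0.38, 0.64 and 0.51, adjusted p = 1.6e-05, 1.5e-08 and 2.7e-07). Almost all of this sum came from Asah1-203, annotated as a retained intron, and Asah1-202, annotated for nonsense-mediated decay. The coding transcript Asah1-201 held 1.35% to 5.13% of Asah1 TPM. Over coding transcripts alone Asah1 differed by -0.24 (adjusted p = 0.39), 0.56 (0.041) and 0.00 (0.99) in the 3 comparisons at 24 h. At 6 h the summed Asah1 rose by 0.37 with trametinib and 0.38 with the combination, and coding transcripts differed by 0.52 (adjusted p = 0.059) and 0.02 (0.93). Ppt1, a thioesterase that removes palmitate from proteins, rose with the combination at 24 h (0.24 ± 0.05 SE, adjusted p = 2.2e-04). Its calls with the combination at 6 h (0.12) and trametinib at 24 h (0.14) were lost without 1 of several libraries. For the first these were untreated replicate 1, 2 or 3 (0.11, 0.12 and 0.12) and combination replicate 1 or 3 (0.11 and 0.11). For the second they were untreated replicate 3 (0.12) and trametinib replicate 1 or 3 (0.11 and 0.13).

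Of the 2 regulators, Tfe3 fell at 24 h with trametinib and the combination, and Tfeb was called once against untreated cells. Tfe3 was at 13.1, 12.7 and 15.3 TPM in the 3 untreated libraries at 6 h, 16.9, 14.5 and 14.5 after chemotherapy, 15.9, 12.8 and 14.2 after trametinib and 17.2, 14.2 and 15.6 after the combination. After 24 h Tfe3 was at 16.1, 13.96 and 13.5 TPM untreated, 13.97, 12.96 and 16.5 after chemotherapy, 10.7, 10.05 and 10.3 after trametinib and 10.6, 10.2 and 10.97 after the combination. The trametinib and combination libraries at 24 h were all below 11 TPM and every other library was above 12 TPM. Tfe3 differed by -0.44 ± 0.10 (SE, adjusted p = 5.9e-04) with trametinib and -0.42 ± 0.10 (SE, adjusted p = 9.0e-04) with the combination at 24 h. Tfeb was at 3.37, 1.802 and 3.19 TPM in the 3 untreated libraries at 6 h, 3.77, 2.94 and 1.59 after chemotherapy, 3.48, 3.42 and 2.16 after trametinib and 3.79, 5.16 and 4.93 after the combination. After 24 h Tfeb was at 2.18, 2.399 and 2.72 TPM untreated, 3.498, 2.09 and 2.78 after chemotherapy, 1.74, 1.88 and 2.304 after trametinib and 1.92, 2.97 and 3.697 after the combination. Tfeb was low and spread widely within groups. Its combination difference at 6 h was 0.59 ± 0.22 (SE, adjusted p = 0.029), which was lost without untreated replicate 2 (0.39, adjusted p = 0.17) or combination replicate 2 (0.52, 0.091) or 3 (0.55, 0.078), and on the rescaled values (0.47). Against chemotherapy at 6 h the combination was 0.62 ± 0.22 (SE, adjusted p = 0.024) higher, a call lost without chemotherapy replicate 3 (0.37, 0.17) or combination replicate 2 (0.55, 0.078) or 3 (0.57, 0.070), on the rescaled values (0.49, 0.068) and for coding transcripts alone (0.31, 0.15). Coding transcripts held 28.0% to 100% of Tfeb TPM, and over these alone the 6 h difference was 0.72 (adjusted p = 0.0021) for trametinib and 0.75 (0.0013) for the combination.

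Set against chemotherapy, the combination was higher in 24 of 36 genes and lower in 2 at 6 h (39.7% and 16.4% of all genes, 56.0% in all), and higher in 18 and lower in 6 at 24 h (30.3% and 23.2%, 53.5% in all). Over all genes the combination libraries lay above the chemotherapy ones without overlap in 39.8% at 6 h and 33.8% at 24 h. On the rescaled values the 6 h split was 18 and 7. At 24 h the largest differences were in Asah1 (0.88 ± 0.06 SE, adjusted p = 2.8e-10), Lamp2 (0.78 ± 0.06 SE, adjusted p = 6.6e-10), Atp6v0d1 (0.78 ± 0.05 SE, adjusted p = 1.9e-10) and Lipa (0.70 ± 0.06 SE, adjusted p = 1.4e-08). The 6 lower genes were Ctsl (-0.57), Gla (-0.55), Man2b1 (-0.42), Tfe3 (-0.41), Scarb2 (-0.36) and Cln3 (-0.33). For coding transcripts alone the Asah1 difference was 0.24 (adjusted p = 0.39) and that of Cln3 -0.20 (0.21). Set against trametinib, the combination was higher in 8 and lower in 0 at 6 h (12.3% and 6.53% of all genes). The 6 h count was 4 without combination replicate 3 and 5 without trametinib replicate 2. At 24 h it was higher in 21 and lower in 3 (31.4% and 18.0%). The largest were Man2b1 (0.76 ± 0.06 SE, adjusted p = 1.6e-09), Ctsl (0.73 ± 0.06 SE, adjusted p = 4.8e-09), Ctsd (0.66 ± 0.04 SE, adjusted p = 4.3e-10), Neu1 (0.51 ± 0.11 SE, adjusted p = 6.1e-04) and Tpp1 (0.50 ± 0.04 SE, adjusted p = 7.8e-09). The 3 lower genes were Ids (-0.60), Naglu (-0.48) and Cd63 (-0.28).

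The combination was also compared with the sum of the log2 differences of its parts. At 6 h no lysosome gene departed from that sum by limma's test, 2 had an unadjusted p under 0.05, and 12 of all tested genes were called (0.0954%). At 24 h 11 genes were above the sum and 5 below it, where 16.2% and 15.6% of all genes were. Ctsl was above by 0.80 ± 0.08 (SE, adjusted p = 6.7e-07): chemotherapy alone gave -0.07 and trametinib alone -1.37, while the combination gave -0.64. Neu1 (0.75 ± 0.15 SE, adjusted p = 8.5e-04) and Lipa (0.50 ± 0.09 SE, adjusted p = 2.0e-04) were above it too. Below it were Ctsf (-1.18), Ids (-0.57), Cln3 (-0.42), Cd63 (-0.32) and Man2b1 (-0.28). Lamp1 (-0.10 ± 0.05) and Lamp2 (0.10 ± 0.08) did not pass. For coding transcripts alone Mcoln1 (0.10, adjusted p = 0.57), Cln3 (-0.39, 0.11), Idua (0.22, 0.30) and Asah1 (-0.32, 0.49) were no longer called. The Asah1, Idua and Npc1 calls were lost in 7, 5 and 6 of the 12 fits that each left out 1 library (adjusted p up to 0.076).

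The chemotherapy difference was greater at 24 h than at 6 h in 12 genes and smaller in 8 (28.3% and 16.7% of all genes; 10 and 12 on the rescaled values). For trametinib it was greater in 5 and smaller in 16 (15.9% and 22.3%), and for the combination 11 and 11 (25.3% and 24.3%). Greater and smaller refer to the signed difference, so the fall of Ctsl, which deepened under trametinib and the combination, counts as smaller. Under trametinib the largest drops between times were in Gla (-1.0 ± 0.20 SE, adjusted p = 6.5e-04), Ctsl (-0.90 ± 0.08 SE, adjusted p = 1.0e-07), Naglu (-0.88 ± 0.19 SE, adjusted p = 0.001), Neu1 (-0.84 ± 0.15 SE, adjusted p = 2.1e-04) and Lipa (-0.76 ± 0.09 SE, adjusted p = 1.4e-06). Untreated cells themselves moved: 23 of the 36 genes were higher at 24 h than at 6 h and 5 lower, against 29.4% and 31.4% of all genes, with a median of 0.32 beside -0.01. Naglu (1.01 ± 0.13 SE, adjusted p = 2.1e-06) and Lipa (0.98 ± 0.06 SE, adjusted p = 1.3e-10) rose most. Gusb (-0.59), Cd63 (-0.44), Atp6v1h (-0.42), Lamp1 (-0.39) and Atp6ap1 (-0.22) fell. The 24 h comparisons are therefore read against a higher untreated level for most of the list.

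**Figure D3:**
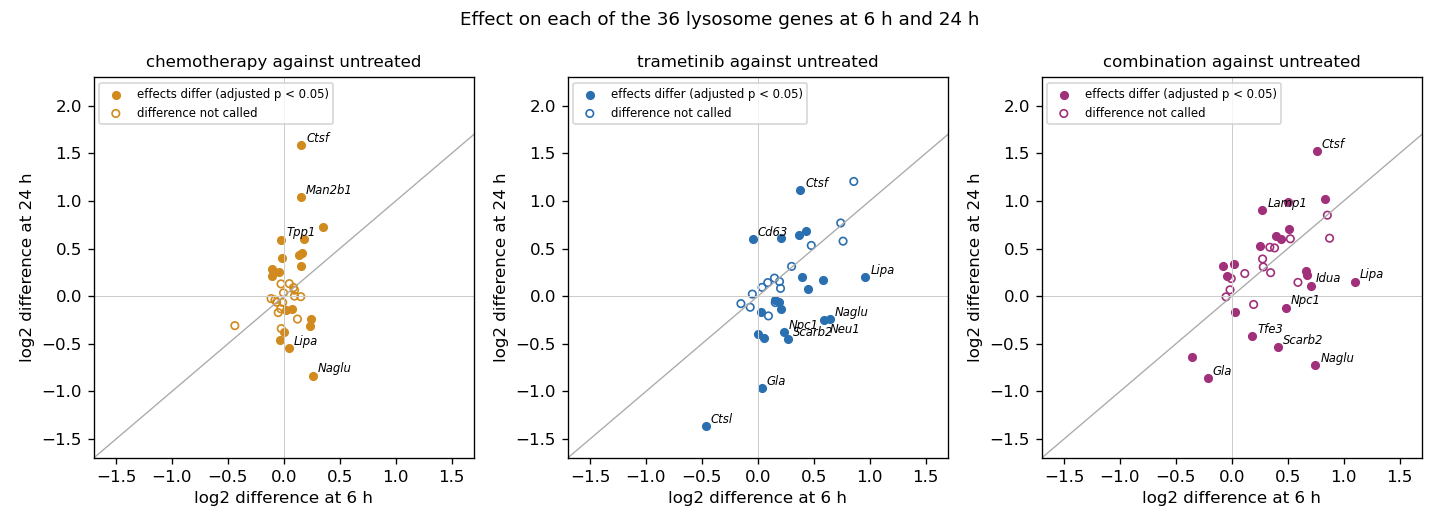
Log2 difference from untreated cells at 24 h (vertical) against 6 h (horizontal) for the 36 lysosome genes, 1 panel per treatment; filled points differ between times by limma's test, and the grey line marks equal differences. Chemotherapy points spread vertically near 0 at 6 h, and in the trametinib panel Gla, Ctsl, Lipa, Naglu and Neu1 lie below the line.

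Single transcripts were read for shifts in isoform that gene sums could hide. Of the 36 genes, 22 had 2 or more transcripts that could be tested, 98 in all. After 24 h of the combination 24 transcripts were higher and 6 lower, and after 24 h of chemotherapy 12 and 13 (34.5% and 33.5% of all transcripts were called in either direction). Trametinib at 24 h gave 17 and 4 (29.1%). At 6 h chemotherapy gave 1 and 0 (7.10%), trametinib 20 and 1 (22.8%) and the combination 27 and 0 (27.2%). Genes with transcripts called in both directions numbered 0 in each of these comparisons at 6 h and 1 in each at 24 h. Lamp2 has alternative last exons that give proteins with different tails. Lamp2-201 held 32.1% ± 0.963 (SD, n = 3) of Lamp2 TPM in untreated cells at 24 h, 44.1% ± 1.97 with chemotherapy, 34.9% ± 1.41 with trametinib and 45.4% ± 1.85 with the combination. Chemotherapy raised Lamp2-201 by 0.65 ± 0.05 (SE, adjusted p = 1.8e-08) and gave -0.08 ± 0.07 (0.48) for Lamp2-202, the other main form. With the combination Lamp2-201 rose by 1.47 ± 0.05 (2.5e-13) and Lamp2-202 by 0.67 ± 0.07 (5.8e-07). Ctsd-201 held 40.9% to 49.4% of Ctsd TPM in the 3 untreated libraries at 24 h and 53.0% to 55.7% in the 3 combination libraries of that time, and its level rose by 0.90 (adjusted p = 1.3e-05). Psap-202 held 15.4% ± 8.16 of Psap TPM in untreated cells at 24 h and 8.43% ± 3.06 with the combination, with overlapping libraries, and was called in no comparison with untreated cells. Lipa shows the limit of such values: Lipa-201 and Lipa-202, of 2969 and 2965 bases, swung between 13.5% and 93.1% of Lipa TPM for Lipa-201 among the 3 untreated libraries at 6 h, while their sum stayed between 14.5 and 16.1 TPM.

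**Figure D4:**
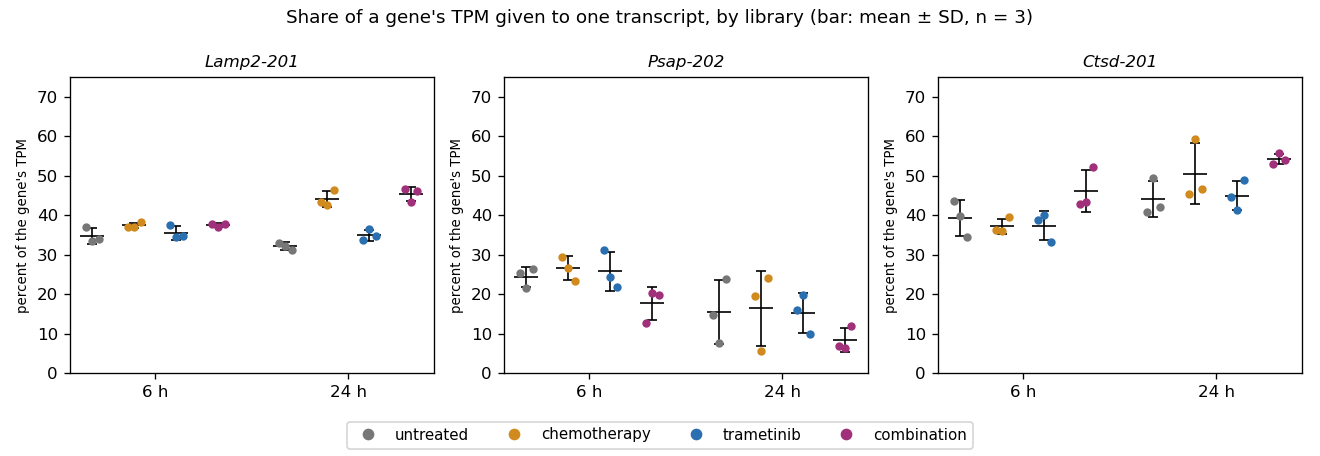
Percent of the TPM of Lamp2, Psap and Ctsd given to 1 transcript of each, by library at 6 h and 24 h (points, coloured by treatment; bars, mean ± SD of 3 libraries). The Lamp2-201 share is 42.6% or more in all chemotherapy and combination libraries at 24 h and at most 38.3% in all other libraries, while the Psap-202 share overlaps between most groups.

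Gene sums were then set beside sums over coding transcripts, an alternative chosen after the data were seen. Coding transcripts held at least 90% of the gene's TPM in every library for 22 of the 36 genes and under 50% in at least 1 library for 4 (Asah1, Cln3, Idua and Tfeb). Shares of all genes called on coding sums were not counted, so the counts that follow have no background to be read against. With coding transcripts alone chemotherapy at 24 h gave 12 higher and 4 lower, in place of 12 and 9. The 5 falls lost were Asah1, Atp6ap1, Idua, Mcoln1 and Sgsh, while Naglu (-0.80, adjusted p = 3.6e-07) remained called. With trametinib at 24 h they gave 16 higher and 10 lower, in place of 14 and 8. Calls that appeared there were Sgsh (0.43, adjusted p = 0.0013) and Mcoln1 (0.25, 0.018), which were higher, and Neu1 (-0.43, 0.026) and Naglu (-0.29, 0.011), which were lower.

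Another 102 tested lysosomal genes, of 113 listed names, gave a view beyond the 36. With trametinib at 6 h 64 were higher and 9 lower (35.9% and 18.9% of all genes), with the combination 68 and 9 (38.6% and 19.8%), and with chemotherapy 9 and 10 (11.3% and 13.5%). At 24 h trametinib gave 49 and 15 (32.4% and 26.3%), the combination 53 and 15 (39.6% and 23.8%), and chemotherapy 47 and 26 (34.9% and 24.3%). These 102 genes were not read on rescaled values, with a library left out or for coding transcripts alone. How far their counts depend on these settings is therefore unknown. Of 17 other proton pump subunits 12 were higher and 0 lower with trametinib at 6 h, and of 29 other hydrolases and cofactors 24 and 2. The remaining lists were more mixed: 11 and 2 of 18 other membrane proteins, 9 and 4 of 20 sorting and fusion genes and 8 and 1 of 18 regulators. With trametinib at 24 h the pump subunits gave 7 and 3 and the hydrolases and cofactors 15 and 7. Ctns, the cystine exporter, rose within 6 h from 5.11 to 11.5 TPM under trametinib and to 15.4 TPM under the combination (log2 differences 1.03 and 1.42, adjusted p = 1.9e-08 and 1.7e-10). Smpd1, the acid sphingomyelinase, rose by 0.92 and 1.12, and the cathepsin Ctso by 0.91 and 1.13. Ctsc, which activates granule proteases, fell at 6 h by 0.79 with trametinib and 0.60 with the combination. At 24 h Ctso (1.28) and Acp2 (0.78) were among the largest rises with trametinib and Hyal1 (1.57), a hyaluronidase, and the channel Tpcn1 (1.04) among those with chemotherapy. Chemotherapy lowered at 24 h the GTPase gene Rraga, whose product recruits mTORC1 (-0.95), and the ion channel Tmem175 (-0.89). The adaptor gene Ap3d1 rose by 1.12 with trametinib and 1.195 with the combination. Mitf, a transcription factor of the same family as Tfeb and Tfe3, fell from 6.84 TPM in untreated cells at 24 h to 1.21 TPM under trametinib and 1.58 TPM under the combination (log2 differences -1.829 and -1.603, adjusted p = 1.1e-13 and 5.5e-13).

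Genes with and without CACGTG in their window both held called genes at 6 h. With trametinib 7 of the 13 genes with it were higher and 1 lower (median 0.19), and 13 of the 19 without it were higher and 0 lower (median 0.21). With the combination the counts were 8 and 1 (median 0.28) and 15 and 0 (median 0.41). Of all genes 35.9% were higher and 18.9% lower with trametinib at 6 h, and 38.6% and 19.8% with the combination. At 24 h the combination gave 7 and 3 (median 0.23) and 15 and 2 (median 0.31), against 39.6% and 23.8% of all genes. Of the 6 genes with TCACGTGA, 4 rose with trametinib at 6 h (Atp6v0d1, Mcoln1, Ctsa and Ctsd, the last a call lost on the rescaled values), and Cln3 (0.04) and Gla (0.04) did not pass.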

How the data were processed

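The data were 24 RNA sequencing libraries of LLC1 cells. The submitters' processing notes name bcl2fastq 2.17.1.14, kallisto 0.45 and GRCm38. For the transcript set, the strand setting and the depth, nothing is given in the sources used here. The authors deposited TPM per transcript, scaled to the same total in each library. The 79662 of 82934 transcripts that matched GENCODE M21 were summed per gene, and the other 3272 (4.45% to 5.98% of TPM) were left out. Genes that reached 1 TPM in 3 or more libraries were tested on log2(TPM + 1), a scale that understates the change of low genes.

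Because the deposited values are TPM, the count model of the design text was not used. limma 3.58.1 in R 4.3.3 fitted a mean per group to all 24 libraries (16 residual degrees of freedom, variance trend), two-sided, with Benjamini-Hochberg adjustment over all 12581 genes. Errors of differences are standard errors. The members and lists were chosen with earlier results of these data known. Values in every library are given for genes chosen by name (Lamp1, Lamp2, Grn, Ctsd, Ctsb, Ctsl, Npc1, Mcoln1, Tfeb and Tfe3) and for the 3 largest called rises and falls without overlap at 5 TPM or more in each comparison with untreated cells. Other genes are named with their role, and 1 result is not reported here. Alternatives changed the pseudocount (0.1), the filter, the scaling, the threshold (Bonferroni, 0.10), a replicate block, the libraries fitted and, added later, coding transcripts only. In a simulation of the 6 h chemotherapy comparison over 12581 genes, 50 genes were changed at each fold and all others left unchanged. Here limma called in the right direction 19 of 50 genes changed 1.25-fold, 44 at 1.5-fold, 49 at 2-fold and 49 at 3-fold, and 6 unchanged genes. In the data 24.8% of genes were called in that comparison, so these rates need not hold there. Exons of 15 members overlap another gene, on the same strand for 3 (Ctsd, Ctsl and Glb1), where reads cannot be told apart. For 13 members the overlap is on the opposite strand, and whether reads there can be told apart depends on the strand setting, which is not given. No libraries held identical values.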

Additional observations from a re-analysis of the deposited data

Results flagged for a closer look

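These results are named because the effect of a treatment differed between the 6 h and 24 h samples, or because the combination differed from the sum of its parts, by limma's test of that difference (adjusted p under 0.05). Values are differences between log2 differences.

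The chemotherapy effect was greater at 24 h than at 6 h in Lamp1 (0.42), Lamp2 (0.32), Grn (0.30), Ctsd (0.42), Ctsf (1.43), Ctsz (0.17), Npc2 (0.30), Man2b1 (0.89), Atp6v0d1 (0.29), Atp6v1h (0.39), Tpp1 (0.62) and Cln3 (0.38). It was smaller or turned lower in Ctsb (-0.16), Hexa (-0.21), Gaa (-0.48), Mcoln1 (-0.55), Lipa (-0.59), Asah1 (-0.38), Idua (-0.43) and Naglu (-1.09). Naglu, Lipa, Idua and Mcoln1 were thus among the genes that chemotherapy lowered at 24 h, and Man2b1, Tpp1 and Ctsd among those it raised. The Ctsz call was lost in 10 of 12 fits without 1 library (0.14 to 0.18, adjusted p = 0.054 to 0.1), all but those without chemotherapy 6 h replicate 1 or untreated 24 h replicate 3. The Gaa call was lost without untreated 6 h replicate 1 or 2 or chemotherapy 6 h replicate 1 or 3 or untreated 24 h replicate 1 or 3 or chemotherapy 24 h replicate 2 (-0.49 to -0.39, adjusted p = 0.052 to 0.093). Calls were lost on the rescaled values in Ctsz (0.09, adjusted p = 0.36) and Grn (0.21, adjusted p = 0.05), for coding transcripts alone in Asah1 (-0.20, adjusted p = 0.64), Gaa (-0.31, adjusted p = 0.28), Idua (-0.23, adjusted p = 0.24) and Mcoln1 (-0.18, adjusted p = 0.26) and with no filter on low values in Gaa (-0.48, adjusted p = 0.058).

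The trametinib effect was greater at 24 h in Lamp1 (0.40), Lamp2 (0.25), Ctsf (0.73), Asah1 (0.27) and Cd63 (0.64). The signed effect was lower at 24 h in Ctsb (-0.40), Ctsd (-0.25), Ctsl (-0.90), Hexa (-0.19), Gla (-1.0), Glb1 (-0.19), Neu1 (-0.84), Npc1 (-0.61), Scarb2 (-0.72), Mcoln1 (-0.37), Lipa (-0.76), Man2b1 (-0.34), Tpp1 (-0.19), Idua (-0.41), Naglu (-0.88) and Tfe3 (-0.50). In Ctsl this was a fall that deepened, from -0.47 at 6 h to -1.37 at 24 h. Npc1, Scarb2 and Man2b1 were called higher at 6 h and lower at 24 h, where the Man2b1 call at 6 h was lost on the rescaled values and its call at 24 h without untreated replicate 1 or 3 or trametinib replicate 2 or 3 (-0.14, -0.10, -0.11 and -0.14). Calls were lost on the rescaled values in Ctsd (-0.18, adjusted p = 0.095), Glb1 (-0.12, adjusted p = 0.13) and Hexa (-0.12, adjusted p = 0.14), for coding transcripts alone in Asah1 (0.04, adjusted p = 0.94) and Mcoln1 (-0.20, adjusted p = 0.21) and in a fit of only the groups compared in Glb1 (-0.19, adjusted p = 0.052).

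The combination effect was greater at 24 h in Lamp1 (0.63), Lamp2 (0.48), Ctsd (0.15), Ctsf (0.76), Ctsz (0.31), Npc2 (0.28), Man2b1 (0.23), Atp6v0d1 (0.19), Atp6v1h (0.26), Tpp1 (0.19) and Cd63 (0.40). The signed effect was lower at 24 h in Ctsb (-0.19), Ctsl (-0.28), Gla (-0.65), Neu1 (-0.40), Npc1 (-0.60), Scarb2 (-0.95), Mcoln1 (-0.45), Lipa (-0.95), Idua (-0.60), Naglu (-1.47) and Tfe3 (-0.60). In Ctsl the fall deepened, from -0.36 at 6 h to -0.64 at 24 h. Naglu and Scarb2 were called higher at 6 h and lower at 24 h. The Atp6v0d1 call was lost without untreated 6 h replicate 3 or combination 6 h replicate 1 or 2 or untreated 24 h replicate 1 or combination 24 h replicate 2 (0.15 to 0.18, adjusted p = 0.056 to 0.094). The Atp6v1h call was lost without untreated 6 h replicate 3 (0.22, adjusted p = 0.062). The Ctsd call was lost in 10 of 12 fits without 1 library (0.14 to 0.16, adjusted p = 0.052 to 0.098), all but those without untreated 6 h replicate 3 or combination 6 h replicate 1. The Man2b1 call was lost without untreated 6 h replicate 1 or combination 6 h replicate 1 or 2 or untreated 24 h replicate 2 or combination 24 h replicate 3 (0.18 to 0.21, adjusted p = 0.051 to 0.07). The Neu1 call was lost without untreated 6 h replicate 1 or 2 or combination 6 h replicate 3 or untreated 24 h replicate 1 or 3 or combination 24 h replicate 1 (-0.41 to -0.30, adjusted p = 0.0501 to 0.11). Calls were lost on the rescaled values in Ctsd (0.17, adjusted p = 0.097), for coding transcripts alone in Mcoln1 (-0.27, adjusted p = 0.074) and Neu1 (-0.22, adjusted p = 0.45), with no filter on low values in Ctsd (0.16, adjusted p = 0.051) and Neu1 (-0.40, adjusted p = 0.061), in a fit of only the groups compared in Man2b1 (0.23, adjusted p = 0.061) and Neu1 (-0.40, adjusted p = 0.058), with a replicate block in Ctsd (0.16, adjusted p = 0.058) and with a pseudocount of 0.1 in Ctsf (0.52, adjusted p = 0.12).

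Above the sum of its parts at 24 h, the combination stood in Ctsb (0.38), Ctsl (0.80), Hexa (0.41), Glb1 (0.22), Neu1 (0.75), Npc1 (0.26), Mcoln1 (0.47), Lipa (0.50), Asah1 (0.24), Atp6ap1 (0.36) and Idua (0.40). Below the sum were Ctsf (-1.18), Man2b1 (-0.28), Cln3 (-0.42), Ids (-0.57) and Cd63 (-0.32). The Asah1 value comes mostly from transcripts not annotated as coding. Calls were lost for coding transcripts alone in Asah1 (-0.32, adjusted p = 0.49), Cln3 (-0.39, adjusted p = 0.11), Idua (0.22, adjusted p = 0.3) and Mcoln1 (0.10, adjusted p = 0.57). The Asah1 call was lost without untreated 24 h replicate 1 or 3 or chemotherapy 24 h replicate 1 or 3 or trametinib 24 h replicate 2 or 3 or combination 24 h replicate 2 (0.22 to 0.24, adjusted p = 0.052 to 0.076). The Idua call was lost without untreated 24 h replicate 3 or chemotherapy 24 h replicate 1 or 2 or trametinib 24 h replicate 2 or combination 24 h replicate 2 (0.35 to 0.37, adjusted p = 0.056 to 0.064). The Npc1 call was lost without untreated 24 h replicate 3 or chemotherapy 24 h replicate 1 or 3 or trametinib 24 h replicate 2 or combination 24 h replicate 1 or 2 (0.21 to 0.25, adjusted p = 0.054 to 0.076). No gene of the list was called against the sum at 6 h.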

How the results depend on the processing

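Under the Bonferroni rule of the design text (adjusted p under 0.10) the counts of called genes fell to 0 for chemotherapy at 6 h, 10 for trametinib at 6 h, 12 for chemotherapy at 24 h, 13 for trametinib at 24 h and 16 for the combination at 24 h. They were 14 and 13 for the combination against chemotherapy at 6 h and 24 h, 0 and 9 against trametinib, and 4 against the sum at 24 h. For effects at 24 h minus those at 6 h they were 6 (chemotherapy), 7 (trametinib) and 6 (combination), and 16 for untreated cells between times. In limma, 8 genes had an unadjusted p under 0.05 for chemotherapy at 6 h and 13 for the combination against trametinib at 6 h. A fit of only the groups compared, with fewer samples, called 1 gene for chemotherapy at 6 h and 1 for the combination against trametinib at 6 h. Rescaling left 5 in the latter. Leaving out 1 library gave 2 to 6 calls for chemotherapy at 6 h and 4 to 7 for the combination against trametinib at 6 h, and every other count stayed within 1.5 times its value. Among transcripts with a mean of at least 5 TPM, 0 were called for chemotherapy at 6 h and 14 at 24 h, where fewer transcripts were tested.

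Rescaling turned the sign of Ctsb (-0.12), Ctsz (-0.12) and Ppt1 (-0.027) for the combination at 6 h, and of Ctsb (-0.15), Glb1 (-0.14) and Npc2 (-0.04) against chemotherapy at 6 h. Ppt1 and Npc2 had been called higher before. The other values had not been called and were lower at an adjusted p of 0.022, 0.047, 0.0058 and 0.012 after rescaling. Coding transcripts alone turned Asah1 against the sum at 24 h (-0.32) and Sgsh in the change of the trametinib effect (0.39). The cause was not tested. Replicate numbers did not pair the libraries: same-numbered libraries deviated together at -0.36 to 0.44 (median -0.04; 23 of 84 pairs over 0.1), and 6 of 24 correlated best with their own number. With a replicate block the count was 7 for chemotherapy at 6 h, 23 for trametinib at 6 h and 25 for the combination at 6 h, and 21, 21 and 29 at 24 h. Depth is unknown from TPM, so no counting error can be given.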
